A study of Mus musculus with 18 samples.

Results

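The 10 genes described here are regulators of the integrated stress response (ISR): Atf4, Atf5, Atf3, Ddit3, Cebpb, Trib3, Ppp1r15a, Sesn2, Ddit4 and Chac1. The rule names the genes and uses no measured value, but the set was proposed with earlier results of these data known. In the deposited count matrix, which holds 57180 genes, 11 rows carry these 10 symbols, because Ddit3 has a main row (ENSMUSG00000025408) and a short row (ENSMUSG00000116429). All 11 rows were among the 14263 genes tested, but Atf3 and the short Ddit3 row passed the filter on low counts only through the groups in which they were highest. Counts of called rows are therefore given over the other 9 rows, 1 for each of the other regulators, and Atf3 and the short Ddit3 row are described by their counts.

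RNA was sequenced from wild-type L929 cells, a line of mouse fibroblasts, in 6 groups of 3 biological replicates, and the question was how the aminotransferase inhibitor aminooxyacetic acid (AOA) and the supply of aspartate change the response to cytosolic DNA. The groups were Mock (labelled DMSO), AOA, AOA+Asp, HT-DNA, HT-DNA+AOA and HT-DNA+AOA+Asp. AOA was used at 0.5 mM with 1 h of pretreatment, and aspartate (Asp) at 20 mM. HT-DNA (herring testis DNA, a ligand of the DNA sensor cGAS) was transfected with a Lipofectamine reagent at 0.5 μg/ml for 6 h. No group received aspartate alone, and the labels do not say that Mock received the lipid, so DNA and transfection cannot be told apart.

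In the ISR, kinases that sense amino acid shortage, misfolded protein, double-stranded RNA or mitochondrial stress phosphorylate the translation factor eIF2α. Overall protein synthesis then falls while the mRNA of ATF4, which carries upstream open reading frames, is translated more, so that much of the control of ATF4 lies outside its mRNA level. ATF4 pairs with C/EBP proteins on composite CARE elements and switches on genes of amino acid supply together with further regulators, among them CHOP (the product of Ddit3), the pseudokinase TRIB3, and GADD34 (the product of Ppp1r15a), which leads the phosphatase back to eIF2α and ends the response.

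Between 17901605 and 24057343 counts fell on genes in each library. Levels are given as CPM (the share of a library that fell on the gene, scaled to a common total by TMM), differences as log2 fold changes with their standard error (SE), and a row was called at a Benjamini-Hochberg adjusted p under 0.05 in edgeR's quasi-likelihood test over all 14263 genes. Of 10 fibroblast markers, 7 had at least 1 CPM, with Vim (2536 CPM on average over the 18 libraries) and S100a4 (2757 CPM) the most abundant, while Dcn, Lum and Thy1 did not exceed 0.169 CPM in any library. The summed fibroblast markers ran from 4753 to 6891 CPM over the libraries, and the leukocyte and macrophage markers Ptprc and Adgre1 were at 0 throughout, while Cd68, a lysosomal gene abundant in macrophages, was at 109.96 to 155 CPM. The HT-DNA group stood apart, since 6879 genes were called between HT-DNA and Mock and 6649 between HT-DNA+AOA+Asp and HT-DNA, but 492 between HT-DNA+AOA+Asp and AOA+Asp, and what sets this group apart was not tested. The HT-DNA+AOA replicates differed more from each other (chi-square per degree of freedom of 18.2 to 67.0) than those of the other groups (2.78 to 13.3), and for 8 of the 10 symbols replicate 1 was the lowest and replicate 3 the highest of that group. All groups shared 1 estimate of the spread, so standard errors, intervals and p-values that involve HT-DNA+AOA may be too small or too narrow.

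Promoter stretches of 100 bases are shown for the 4 regulators whose RefSeq promoter (build GRCm38.p6, 250 bases before to 50 after the start) holds a CARE core or a cAMP response element, and for Ddit3, which had the largest log2 fold change with AOA (2.997, against 2.94 for Ppp1r15a, a gap within their standard errors). The motifs searched on both strands were TGATGNAA (the CARE core), TGACGTCA (the cAMP response element) and CCAAT, and no match overlapped another. Promoters were found for all 10 symbols (11 windows, since Atf5 has 2), and capitals mark the motif as it reads on the strand of the gene, 5′ to 3′. The CARE core lies on the other strand in Trib3, Chac1 and Atf3, where it reads as its reverse complement, and CCAAT likewise in Ddit3. The stretches are Trib3 (chr2:152344031-152344130, minus strand), Chac1 (chr2:119351003-119351102, plus strand), Atf3 (chr1:191183390-191183489, minus strand), Ppp1r15a (chr7:45526239-45526338, minus strand) and Ddit3 (chr10:127290670-127290769, plus strand).
Trib3: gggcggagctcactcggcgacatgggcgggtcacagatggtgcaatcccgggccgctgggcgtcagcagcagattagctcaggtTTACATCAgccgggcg
Chac1: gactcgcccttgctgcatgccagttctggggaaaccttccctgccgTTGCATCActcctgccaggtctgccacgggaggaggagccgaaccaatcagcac
Atf3: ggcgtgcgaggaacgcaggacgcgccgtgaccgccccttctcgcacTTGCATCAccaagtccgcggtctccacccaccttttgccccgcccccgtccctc
Ppp1r15a: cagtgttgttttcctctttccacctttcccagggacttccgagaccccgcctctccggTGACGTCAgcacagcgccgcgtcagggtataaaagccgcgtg
Ddit3: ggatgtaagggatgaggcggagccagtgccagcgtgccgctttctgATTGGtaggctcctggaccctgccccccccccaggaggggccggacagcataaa
The CARE core was in 3 of the 11 windows and in 3.97% of all 32851 promoters of this length. Its first base on the gene strand lay 110 bases before the start in Atf3, 193 before it in Chac1 and 15 after it in Trib3. The cAMP response element was in 1 window, that of Ppp1r15a, 12 bases before the start, and in 1.79% of all promoters. CCAAT, which was in 37.4% of all promoters, was found in the windows of Atf3, Atf4, Chac1, Ddit3, Ddit4 and Sesn2 and in 1 of the 2 windows of Atf5. In the stretch of Chac1, 1 CCAAT is left in lower case. A match is a run of letters and not a binding site, and the windows of Cebpb, Trib3 and Ppp1r15a held no CCAAT.

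AOA raised most of these regulators, and Ddit3 and Ppp1r15a the most. Relative to Mock, 8 of the 9 rows were called, 7 higher and 1 lower, against 45.7% of all genes tested, and their median log2 fold change was 1.05 against 0.02 over all genes. A log2 fold change of at least 1 was reached by 5 rows, all higher, against 7.48% of all genes. The rows that rose were those of Ddit3, Ppp1r15a, Chac1, Trib3, Ddit4, Sesn2 and Cebpb. Atf5 fell, and Atf4 was not called.

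Atf4, the central transcription factor of the response, read 605, 574 and 604 CPM in Mock, 633, 676 and 676 CPM with AOA, and 559.5, 587 and 577 CPM with AOA+Asp. Every AOA library was above every Mock library, but the log2 fold change of 0.16 (SE 0.0804) was not called (adjusted p = 0.124, edgeR). With only the 6 libraries of Mock and AOA in the fit it was 0.15 and was called (adjusted p = 0.0286). The HT-DNA libraries held 733, 645 and 677 CPM, those of HT-DNA+AOA 569, 676 and 758 CPM, and those of HT-DNA+AOA+Asp 639.7, 631 and 624 CPM. Atf4 thus spanned a narrow range, from a mean of 574 to one of 685 CPM. In order of mean, HT-DNA, HT-DNA+AOA, AOA and HT-DNA+AOA+Asp overlapped from each to the next of these. HT-DNA+AOA+Asp (624 to 639.7 CPM) did not overlap Mock (574 to 605 CPM), which followed it and overlapped AOA+Asp. AOA did not move it in HT-DNA-treated cells beyond the spread (log2 fold change -0.04, 95% interval -0.21 to 0.13).

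Atf5, a relative of ATF4 whose translation is controlled in a similar way, went the other way from most. It read 345, 334 and 382 CPM in Mock and 231, 275 and 251 CPM with AOA, a log2 fold change of -0.49 (SE 0.122, adjusted p = 0.00323 by edgeR). In HT-DNA it read 448, 396 and 430.0 CPM, and in HT-DNA+AOA 183, 229 and 302 CPM, a log2 fold change of -0.84 (SE 0.123, adjusted p = 1.76e-05). No library with AOA alone reached the Mock libraries, nor did any HT-DNA+AOA library reach those of HT-DNA. With aspartate the levels were 296, 319 and 339.5 CPM without HT-DNA and 321, 310.2 and 314 CPM with it. On the strand opposite to Atf5, 82 of its exon bases (4.11%, GENCODE vM21) overlap those of Il4i1 and Nup62, and whether the counting used strand is not given in the sources used here.

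Atf3, a factor that can repress stress genes and is induced by many stimuli, was close to the limit of detection. Over 3 libraries it had 6 counts in Mock, 7 with AOA, 1 with AOA+Asp, 9 with HT-DNA, 47 with HT-DNA+AOA and 6 with HT-DNA+AOA+Asp. The HT-DNA+AOA libraries held 0.993, 0.924 and 0.596 CPM, and the highest of the other 15 libraries held 0.207 CPM. The ratio of summed counts in HT-DNA+AOA was 6.01 to HT-DNA and 7.25 to AOA. No test is given, because Atf3 passed the filter through the HT-DNA+AOA libraries, which had to be high for it to be tested.

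Ddit3 encodes CHOP, a C/EBP-family factor that acts late in the response and can favour cell death. Its main row read 47.0, 42.9 and 48.6 CPM in Mock, 348, 374 and 385 CPM with AOA, and 101, 104 and 107 CPM with AOA+Asp. In the HT-DNA series it read 38.9, 30.9 and 36.9 CPM with HT-DNA, 346, 397 and 417 CPM with HT-DNA+AOA, and 137, 121 and 118 CPM with HT-DNA+AOA+Asp. Levels with AOA were separated from all others by a wide gap, and the aspartate groups lay between them and the untreated ones without overlap. AOA raised Ddit3 by a log2 fold change of 2.997 (SE 0.0947, adjusted p = 3.49e-14 by edgeR) without HT-DNA and of 3.44 (SE 0.0970, adjusted p = 4.85e-15) with it.

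The short Ddit3 row shares 105 of its 105 exon bases with the main row in GENCODE vM21, so reads of the one cannot be told from those of the other. It had 4 counts in Mock, 42 with AOA, 14 with AOA+Asp, none with HT-DNA, 56 with HT-DNA+AOA and 15 with HT-DNA+AOA+Asp. No fold change is drawn from these counts, since how reads were shared between the rows is not known. The main row also overlaps 68 exon bases of Mars and 13 of Gm4189 on the opposite strand.

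Cebpb encodes a C/EBP partner of ATF4 and of inflammatory factors. It read 36.6, 35.1 and 44.3 CPM in Mock, 58.8, 62.9 and 59.7 CPM with AOA, 28.6, 35.4 and 32.1 CPM with AOA+Asp, 35.4, 37.5 and 47.2 CPM with HT-DNA, 51.4, 63.6 and 81.3 CPM with HT-DNA+AOA, and 35.4, 34.3 and 33.9 CPM with HT-DNA+AOA+Asp. Only the groups with AOA and no aspartate were above the rest. With AOA the log2 fold change was 0.65 (SE 0.137, adjusted p = 0.000815 by edgeR) without HT-DNA and 0.71 (SE 0.137, adjusted p = 0.000327) with it. Of the exon bases of Cebpb, 20.7% overlap Tmem189 on the opposite strand, so part of its counts is uncertain.

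Trib3, a pseudokinase that binds ATF4 and CHOP and dampens their action, read 114, 107 and 114 CPM in Mock, 239, 266 and 249.6 CPM with AOA, and 109, 128 and 127 CPM with AOA+Asp. In the HT-DNA series it read 88.6, 79.2 and 83.6 CPM with HT-DNA, 193, 232 and 279 CPM with HT-DNA+AOA, and 142, 135 and 128 CPM with HT-DNA+AOA+Asp. With AOA the log2 fold change was 1.17 (SE 0.102, adjusted p = 4.14e-08 by edgeR) without HT-DNA and 1.49 (SE 0.103, adjusted p = 1.38e-09) with it.

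Ppp1r15a, the stress-induced subunit that directs protein phosphatase 1 to eIF2α, read 50.4, 47.8 and 46.7 CPM in Mock, 399, 365 and 345 CPM with AOA, and 57.5, 59.7 and 60.5 CPM with AOA+Asp. It read 46.2, 45.8 and 48.0 CPM with HT-DNA, 414, 410.2 and 454 CPM with HT-DNA+AOA, and 84.9, 78.1 and 74.2 CPM with HT-DNA+AOA+Asp. Its groups kept a clear order in which only Mock and HT-DNA overlapped. The log2 fold change with AOA was 2.94 (SE 0.0739, adjusted p = 1.24e-15 by edgeR) without HT-DNA and 3.19 (SE 0.0748, adjusted p = 3.28e-16) with it. Its constitutive counterpart Ppp1r15b was among the eIF2 subunits and phosphatase genes counted further on.

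Sesn2 and Ddit4 both restrain the growth kinase mTORC1, Sesn2 as a leucine-binding sestrin and Ddit4 (REDD1) through the TSC complex. Sesn2 read 77.2, 76.4 and 75.2 CPM in Mock, 144, 148 and 134 CPM with AOA, 67.6, 81.6 and 74.2 CPM with AOA+Asp, 83.8, 81.8 and 84.7 CPM with HT-DNA, 121, 134 and 161 CPM with HT-DNA+AOA, and 97.3, 92.8 and 90.5 CPM with HT-DNA+AOA+Asp. Its log2 fold change with AOA was 0.89 (SE 0.0875) without HT-DNA and 0.73 (SE 0.0874) with it, both called. Ddit4 read 18.3, 18.9 and 22.1 CPM in Mock, 43.6, 40.7 and 38.3 CPM with AOA, 14.98, 16.3 and 18.6 CPM with AOA+Asp, 13.8, 13.7 and 14.2 CPM with HT-DNA, 23.6, 28.7 and 32.9 CPM with HT-DNA+AOA, and 14.02, 15.5 and 15.4 CPM with HT-DNA+AOA+Asp. AOA raised it to nearly the same degree without HT-DNA (log2 fold change 1.05, SE 0.109) and with it (1.03, SE 0.113), from a lower start in HT-DNA. The levels of Sesn2 with AOA and with HT-DNA+AOA overlapped, whereas those of Ddit4 did not.

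Chac1, an enzyme that breaks down glutathione and a known target of ATF4 and CHOP, read 11.3, 12.7 and 10.9 CPM in Mock, 41.5, 46.4 and 43.5 CPM with AOA, and 10.3, 13.5 and 11.8 CPM with AOA+Asp. It read 9.20, 8.48 and 9.39 CPM with HT-DNA, 37.7, 40.7 and 53.2 CPM with HT-DNA+AOA, and 16.2, 16.3 and 13.7 CPM with HT-DNA+AOA+Asp. The log2 fold change with AOA was 1.91 (SE 0.124, adjusted p = 9.55e-10 by edgeR) without HT-DNA and 2.28 (SE 0.128, adjusted p = 9.01e-11) with it.

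**Figure D1:**
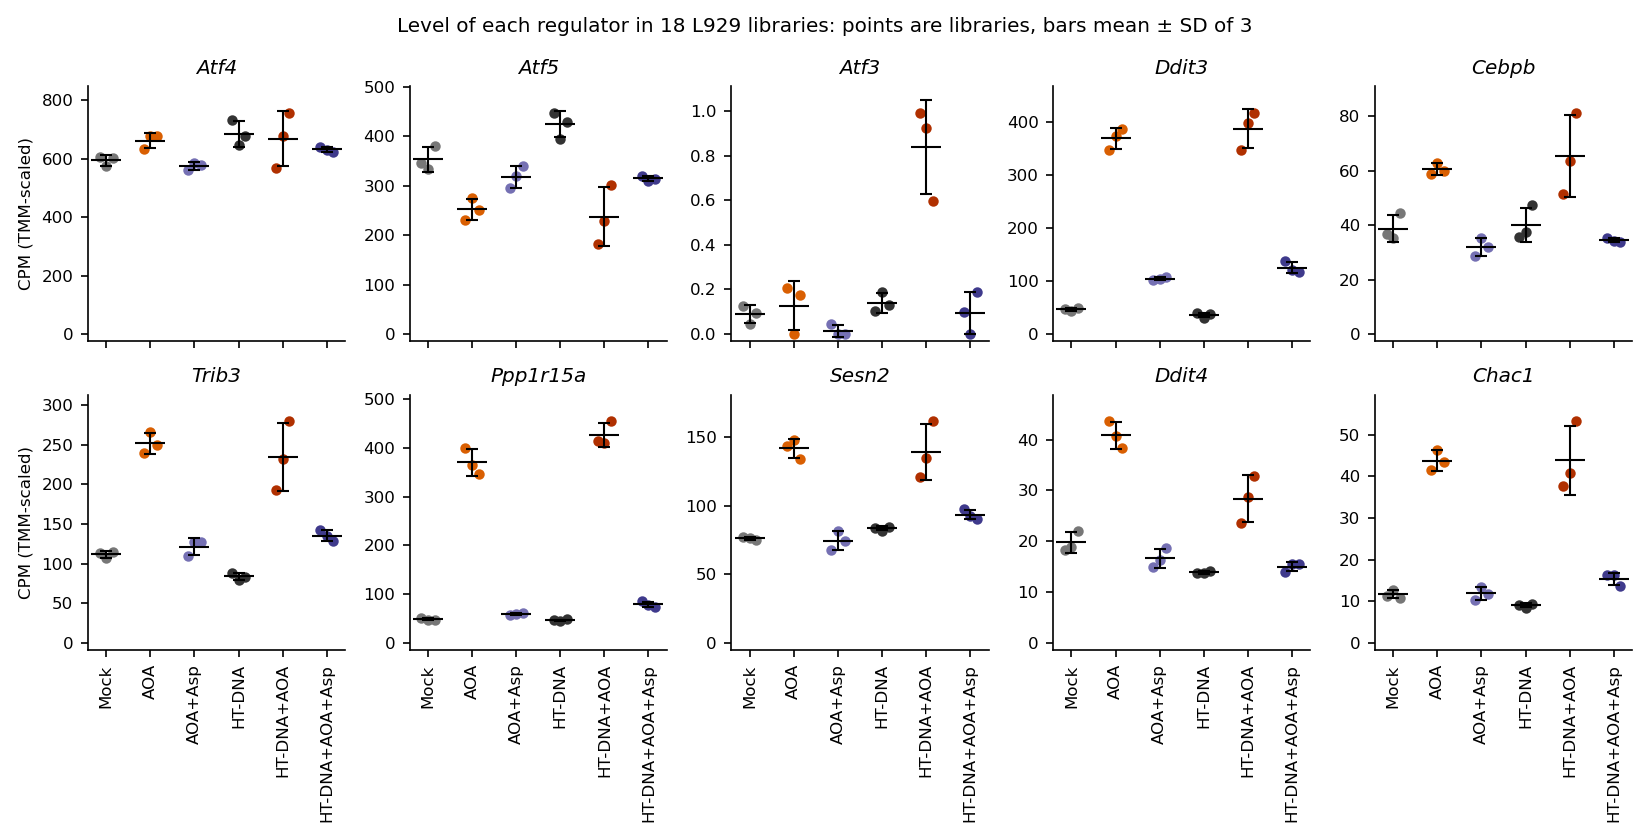
Level of each of the 10 regulators in CPM (TMM-scaled, linear axes from 0, 1 panel per gene) in the 18 libraries; points are libraries, and bars give the mean and SD of 3. Ddit3 and Ppp1r15a stand highest with AOA and HT-DNA+AOA (means of 369 and 387 CPM for Ddit3), Atf4 stays between means of 574 and 685 CPM, and Atf3 leaves the baseline in HT-DNA+AOA.

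Levels were also set against each other per kilobase of exon, with lengths from GENCODE vM21, which may not be the annotation the authors used. In Mock, Atf4 stood at 252 and Atf5 at 177 CPM per kilobase, followed by Trib3 at 52.5, Ddit3 at 27.0, Cebpb at 25.7, Sesn2 at 22.0, Ppp1r15a at 16.5, Ddit4 at 11.3 and Chac1 at 7.11, with Atf3 at 0.0413. With AOA the order changed to Atf4 at 281, Ddit3 at 215, Atf5 at 127, Ppp1r15a at 126 and Trib3 at 118 CPM per kilobase, and the other 5 were at 40.8 or below.

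In HT-DNA-treated cells AOA had calls in the same 8 regulators and in the same directions as without HT-DNA. Relative to HT-DNA, 7 of the 9 rows were higher and 1 lower in HT-DNA+AOA, against 45.4% of all genes called, with a median log2 fold change of 1.03 against 0.02 over all genes. A log2 fold change of at least 1 was reached by 5 rows, all higher, against 10.2% of all genes. The number of calls was 8 when any of the 6 libraries was left out, HT-DNA+AOA replicates 1 and 3 included. Among them, Ddit3 kept a log2 fold change of 3.35 to 3.52 and Ppp1r15a one of 3.14 to 3.22 when 1 library was left out.

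The interaction, which is the log2 fold change with AOA in HT-DNA-treated cells minus that in cells without HT-DNA, was called for 1 of the 9 rows, against 15.5% of all genes, and in none of the 9 did it reach 1 on the log2 scale, against 2.01% of all genes called at that size. Ddit3 was the row called, by 0.45 (SE 0.126, adjusted p = 0.0246 by edgeR). The call was lost without Mock replicate 1 (0.43) or 3 (0.41), AOA replicate 1 (0.40) or 2 (0.45), HT-DNA replicate 2 (0.38) or HT-DNA+AOA replicate 2 (0.43), and with only the 12 libraries of these groups in the fit (0.43, adjusted p = 0.071). Other rows were called under some settings, Trib3 without HT-DNA+AOA replicate 1 (0.44) and with library totals (0.40), Atf5 (-0.56), Atf4 (-0.29) and Sesn2 (-0.28) without HT-DNA+AOA replicate 3, Atf5 also with no filter on low counts (-0.36), and Ppp1r15a without AOA replicate 1 (0.31), with library totals (0.345) and by DESeq2 (0.27). By an unadjusted p under 0.05, 3 rows differed. The terms for Ppp1r15a (0.25, adjusted p = 0.0849), Trib3 (0.31, adjusted p = 0.135) and Chac1 (0.37, adjusted p = 0.157) had 95% intervals of 0.05 to 0.46, 0.02 to 0.61 and 0.00 to 0.73. For Ddit4 (-0.02, 95% interval -0.35 to 0.31) and Cebpb (0.06, -0.34 to 0.46) the sign of the difference is not determined. The terms of the remaining rows were -0.16 for Sesn2, -0.19 for Atf4 and -0.35 for Atf5, none called.

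**Figure D2:**
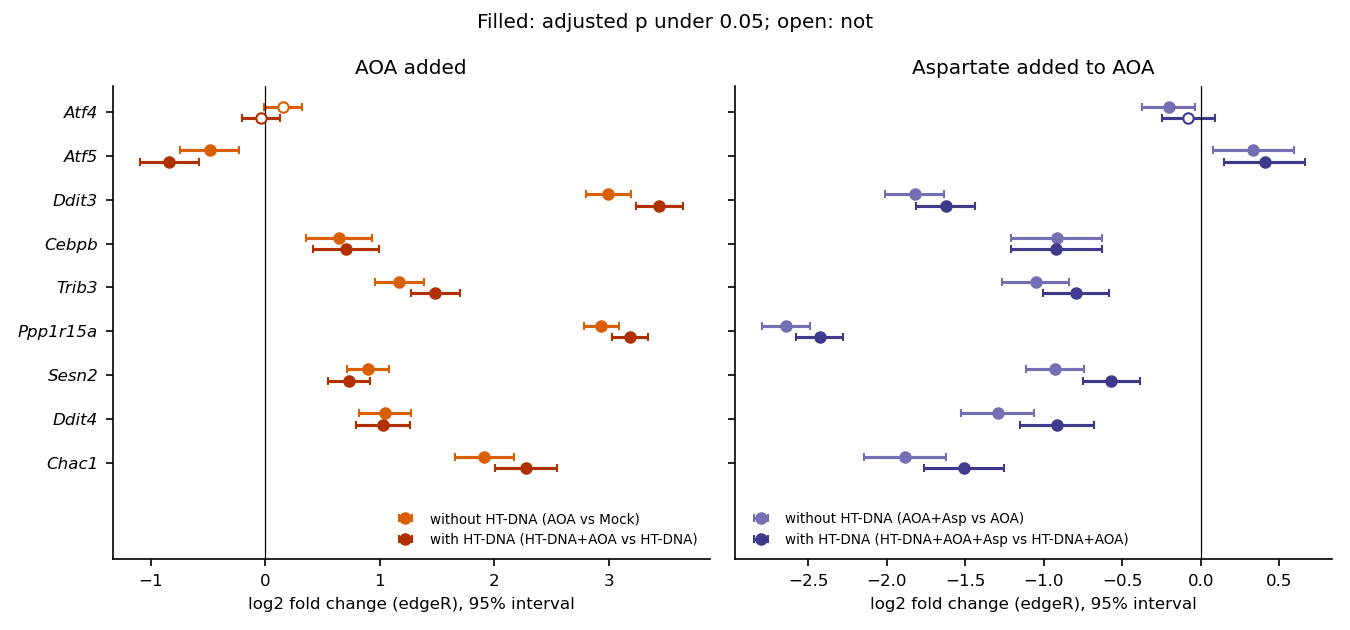
Log2 fold change (linear axis, point) with its 95% interval (bar) of 9 regulators when AOA was added (left) and when aspartate was added to AOA (right), without and with HT-DNA; filled points have an adjusted p under 0.05, and Atf3 is left out because of its low counts. Ddit3 and Ppp1r15a lie farthest to the right on the left side (2.997 and 2.94 without HT-DNA), Atf5 lies on the opposite side of 0 in both panels, and Atf4 lies near 0.

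Aspartate given with AOA brought most of these regulators back towards the level of cells without AOA. Relative to AOA, all 9 rows were called in AOA+Asp, 8 lower and Atf5 higher, against 46.3% of all genes, and the median log2 fold change was -1.05 against -0.01 over all genes. A log2 fold change of at least 1 was reached by 5 rows, all lower. Over all genes 7.19% reached it in either direction, 530 lower and 495 higher. The log2 fold change was -2.64 for Ppp1r15a (SE 0.0729, adjusted p = 1.33e-14 by edgeR), -1.89 for Chac1 (SE 0.124), -1.82 for Ddit3 (SE 0.0898), -1.29 for Ddit4 (SE 0.110), -1.05 for Trib3 (SE 0.101), -0.93 for Sesn2 (SE 0.0876) and -0.92 for Cebpb (SE 0.138). The calls of Atf4 (log2 fold change -0.20, adjusted p = 0.045) and of Atf5 (0.33, adjusted p = 0.0317) rested on single libraries, since Atf4 lost its call without AOA replicate 2 (-0.19) or 3 (-0.19) or AOA+Asp replicate 1 (-0.19), 2 (-0.22) or 3 (-0.21), and Atf5 without AOA replicate 1 (0.27) or 3 (0.33) or AOA+Asp replicate 2 (0.33) or 3 (0.29). Atf4 was also not called with library totals in place of TMM (-0.12, adjusted p = 0.168) or with no filter on low counts (-0.20, adjusted p = 0.0694).

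With HT-DNA most regulators fell as well. In HT-DNA+AOA+Asp relative to HT-DNA+AOA, 8 of the 9 rows were called, 7 lower and Atf5 higher, against 47.7% of all genes, with a median log2 fold change of -0.92 against -0.01 over all genes. A log2 fold change of at least 1 was reached by 3 rows, all lower. Over all genes 7.72% reached it in either direction, 626 lower and 475 higher. The log2 fold change was -2.43 for Ppp1r15a (SE 0.0721), -1.63 for Ddit3 (SE 0.0892), -1.51 for Chac1 (SE 0.121), -0.92 for Cebpb (SE 0.138), -0.92 for Ddit4 (SE 0.113), -0.795 for Trib3 (SE 0.101) and -0.57 for Sesn2 (SE 0.0871), and 0.41 for Atf5 (SE 0.123), which was not called with only the libraries compared in the fit (adjusted p = 0.0897). Atf4 was not called (log2 fold change -0.08, adjusted p = 0.43 by edgeR), but was without HT-DNA+AOA replicate 1 (-0.18, adjusted p = 0.0245). The difference between the aspartate effects with and without HT-DNA was called for 0 of the 9 rows by edgeR and by DESeq2, against 1.05% of all genes (0.379% with a log2 difference of at least 1), and for 4 rows at an unadjusted p under 0.05. It ran from -0.0023 for Cebpb to 0.38 for Chac1, and 2 rows were called without HT-DNA+AOA replicate 3.

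Aspartate left part of the AOA effect on Ddit3 in place. AOA+Asp differed from Mock in 2 of the 9 rows, both higher, against 6.47% of all genes, with a median log2 fold change of -0.03 against 0.01 over all genes. Ddit3 was higher than in Mock by a log2 fold change of 1.17 (SE 0.0906, adjusted p = 8.59e-08 by edgeR), the 1 row of at least 1 on that scale, against 0.505% of all genes. Ppp1r15a was higher by 0.29 (SE 0.0710, adjusted p = 0.0169), which was not called without Mock replicate 2 (0.28) or 3 (0.27) or AOA+Asp replicate 3 (0.28). The other regulators overlapped between AOA+Asp and Mock, with 95% intervals of -0.24 to 0.30 for Chac1, -0.22 to 0.15 for Sesn2, -0.09 to 0.33 for Trib3, -0.48 to -0.01 for Ddit4, -0.56 to 0.02 for Cebpb, -0.22 to 0.12 for Atf4 and -0.41 to 0.10 for Atf5.

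Expressed as a share of the AOA difference in mean CPM, 17.99% of the rise of Ddit3 was left with aspartate (17.1% to 18.9% over the 3 AOA+Asp libraries), 3.40% of that of Ppp1r15a (2.85% to 3.80%), 0.715% of that of Chac1 (-4.28% to 5.80%) and 6.91% of that of Trib3 (-1.84% to 11.6%). Sesn2 (-2.74%), Ddit4 (-14.8%) and Cebpb (-30.5%) were on average below Mock. In HT-DNA-treated cells, taken against HT-DNA, the shares left were 25.5% for Ddit3 (23.4% to 28.8%), 8.54% for Ppp1r15a (7.26% to 10.1%), 18.3% for Chac1 (13.4% to 20.9%), 34.1% for Trib3 (29.4% to 38.7%), 18.2% for Sesn2 (12.8% to 24.9%) and 7.42% for Ddit4 (0.693% to 11.1%). These shares rest on the HT-DNA group as the base, in which Chac1, Trib3, Ddit3 and Ddit4 were below Mock.

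**Figure D3:**
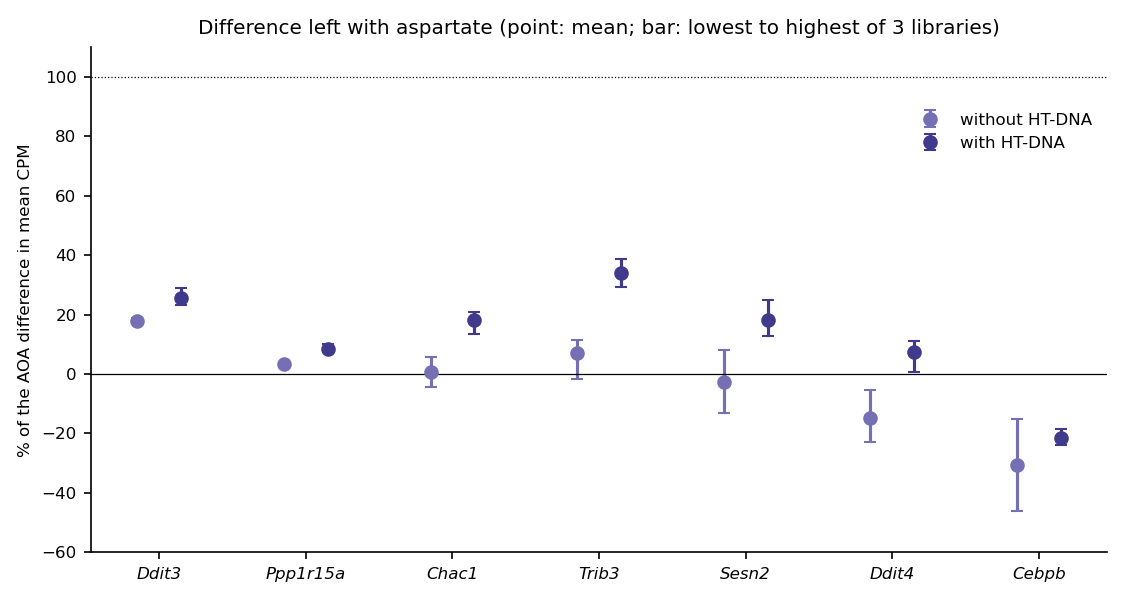
Share of the AOA difference in mean CPM that was left with aspartate (vertical axis, percent) for the 7 regulators that AOA raised in both settings, taken from Mock without HT-DNA and from HT-DNA with it (2 colours); points are means of 3 libraries and bars run from the lowest to the highest library. A value of 0 is the level without AOA and 100 that with AOA; Ddit3 lies at 17.99% and 25.5%, and Cebpb lies below 0 in both.

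HT-DNA+AOA+Asp differed from HT-DNA in 5 of the 9 rows, 4 higher and 1 lower, against 46.6% of all genes, so the share among these rows was near that of all genes, and the median was 0.16 against 0.00 over all genes. Ddit3 was higher by a log2 fold change of 1.82 (SE 0.0926, adjusted p = 4.66e-10 by edgeR), Chac1 by 0.77 (SE 0.131), Ppp1r15a by 0.76 (SE 0.0711) and Trib3 by 0.69 (SE 0.102), while Atf5 had a log2 fold change of -0.43 (SE 0.122). Ddit3 was the 1 row of at least 1 on the log2 scale, against 3.41% of all genes. The other 4 rows lay between -0.21 and 0.16. The short Ddit3 row had 15 counts in HT-DNA+AOA+Asp and none in HT-DNA, and no fold change is given for it. Bulk RNA cannot tell fewer responding cells from less RNA per cell here or in any comparison above.

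HT-DNA on its own had small effects on these regulators, most of those called being downward. Relative to Mock, 5 of the 9 rows were called, 1 higher and 4 lower, against 48.2% of all genes, again near the share of all genes, and none of the 9 reached a log2 fold change of 1, against 4.37% of all genes. At an unadjusted p under 0.05, 6 rows differed, and DESeq2 called 5. Ddit4 had a log2 fold change of -0.50 (SE 0.114, adjusted p = 0.00161 by edgeR), Trib3 one of -0.41 (SE 0.102, adjusted p = 0.00289), Ddit3 one of -0.38 (SE 0.0923, adjusted p = 0.0028) and Chac1 one of -0.37 (SE 0.133, adjusted p = 0.0298). Atf4 was higher by 0.21 (SE 0.0804, adjusted p = 0.0416), a call that library totals in place of TMM did not give (0.09), nor the fits without Mock replicate 1 (0.22), 2 (0.18) or 3 (0.22) or HT-DNA replicate 1 (0.15) or 3 (0.21). Chac1 lost its call without Mock replicate 1 (-0.39) or 2 (-0.30) or any HT-DNA replicate (-0.40 to -0.32). The rows that were not called had log2 fold changes of 0.26 for Atf5, 0.13 for Sesn2, 0.05 for Cebpb and -0.05 for Ppp1r15a.

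In cells that had AOA, HT-DNA had a call in 1 of the 9 rows, against 13.4% of all genes, and in none by a log2 fold change of 1, against 1.85%. Ddit4 was lower in HT-DNA+AOA than in AOA (log2 fold change -0.53, SE 0.107, adjusted p = 0.00262 by edgeR), which was not called when only the 6 libraries compared were fitted (-0.51, adjusted p = 0.102). Ddit3 differed by 0.07 (95% interval -0.11 to 0.25) and Ppp1r15a by 0.20 (0.06 to 0.35, adjusted p = 0.0536), the latter being called with RLE scaling (0.22, adjusted p = 0.0341), with at least 10 counts in every library (0.21), by DESeq2 (0.22), and without AOA replicate 1 (0.26) or HT-DNA+AOA replicate 1 (0.22). The other 6 rows lay between -0.10 and 0.11. With aspartate present as well, none of the 9 rows reached a log2 fold change of 1 in HT-DNA+AOA+Asp relative to AOA+Asp, against 0.722% of all genes. Over all genes 3.45% were called, 275 higher and 217 lower. Of the 9 rows 2 were called, both higher. These were Ppp1r15a (0.42, SE 0.0704, adjusted p = 0.00138) and Sesn2 (0.33, SE 0.0876, adjusted p = 0.0436), and Sesn2 was not called without AOA+Asp replicate 1 (0.26) or 3 (0.33), without any HT-DNA+AOA+Asp replicate (0.30 to 0.35), or with the replicate number as a block (0.33, adjusted p = 0.0504). The other 7 rows lay between -0.15 and 0.38.

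The scaling of the libraries bears on small differences. With library totals in place of TMM the median gene moved by -0.13 on the log2 scale for AOA relative to Mock and by -0.11 for HT-DNA relative to Mock, and by less than 0.1 in the other comparisons. The share of all calls that were higher went from 49.1% to 32.1% for AOA relative to Mock, from 50.7% to 62.2% for AOA+Asp relative to AOA, from 39.0% to 20.9% for AOA+Asp relative to Mock, from 50.2% to 35.2% for HT-DNA relative to Mock, from 49.8% to 62.2% for HT-DNA+AOA+Asp relative to HT-DNA+AOA, and from 46.7% to 64.5% for the interaction of AOA with HT-DNA. No called row of these regulators changed direction under library totals or RLE.

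Known target genes of ATF4 had calls mostly in the direction of the regulators. In each list from here on, the gene named as moving most was taken among called genes with at least 1 CPM in the higher group. Over all genes tested, 3199 rose and 3317 fell with AOA, and 3246 rose and 3231 fell with AOA in HT-DNA-treated cells. Of 21 tested genes of amino acid synthesis, one-carbon metabolism and amino acid transport, 18 rose and 1 fell with AOA, with a median log2 fold change of 0.47. With aspartate added 17 fell and 2 rose, while over all genes 3255 fell and 3345 rose. In HT-DNA-treated cells 15 rose and none fell with AOA. The largest rise was that of Slc3a2, the heavy chain of several amino acid transporters, from 170.3 ± 3.66 to 346 ± 5.28 CPM (SD, n = 3; log2 fold change 1.02, SE 0.0690, adjusted p = 1.74e-09 by edgeR). The gene that fell was Slc7a11, the cystine transporter subunit (-0.69, SE 0.117, adjusted p = 0.000101). In HT-DNA-treated cells Aldh1l2, a mitochondrial folate enzyme, rose most (1.80, SE 0.135). HT-DNA alone lowered 10 of the 21 and raised 4, where 48.2% of all genes were called (3454 higher and 3425 lower), with Slc6a9, a glycine transporter, lowest (-1.24, SE 0.0966).

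Of 12 aminoacyl-tRNA synthetases, which charge tRNAs and were listed here because they are known to respond to ATF4, 11 rose with AOA and 12 in HT-DNA-treated cells, and none fell. Gars rose from 514 ± 10.1 to 820.4 ± 6.29 CPM with AOA (SD, n = 3; log2 fold change 0.68, SE 0.0557), and Eprs rose most with HT-DNA (0.99, SE 0.105). Aspartate lowered 10 of the 12 without HT-DNA and 7 with it, where 46.3% and 47.7% of all genes were called in either direction. None of the 12 was called between AOA+Asp and Mock by edgeR, where only 6.47% of all genes were. Other synthetases were not counted. Among 16 other tested targets of ATF4 or CHOP, 10 rose and 2 fell with AOA, and 13 rose and 2 fell with AOA in HT-DNA-treated cells. The hormone Fgf21 rose most in each setting, from 0.600 ± 0.179 to 2.07 ± 0.325 CPM without HT-DNA (SD, n = 3; 1.78, SE 0.341) and by 3.67 with it (SE 0.419), at low levels, while the death receptor gene Tnfrsf10b, a known CHOP target, fell (-0.54, SE 0.0653, and -0.41, SE 0.0654). For 8 of the 16 the interaction of AOA with HT-DNA was called, all positive, against 15.5% of all genes (1031 positive and 1178 negative).

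Among genes that act upstream of ATF4, calls went in both directions. Of 10 eIF2α kinases and their regulators, 1 rose and 6 fell with AOA, with a median log2 fold change of -0.35, and 3 rose and 3 fell in HT-DNA-treated cells. Oma1, the mitochondrial protease that passes mitochondrial stress on to the kinase HRI, rose from 2.88 ± 0.390 to 8.29 ± 0.480 CPM (SD, n = 3; log2 fold change 1.52, SE 0.152, adjusted p = 2.27e-07 by edgeR), and Eif2ak2, the kinase PKR that senses double-stranded RNA, fell most (-0.93, SE 0.188, adjusted p = 0.000551). Eif2ak3, the kinase PERK of the endoplasmic reticulum, fell most with AOA in HT-DNA-treated cells (-0.92, SE 0.105) and rose most when aspartate was added (1.38, SE 0.105). Of 12 genes of eIF2, its exchange factor eIF2B, the phosphatase and the separate initiation factor eIF2A, 8 rose and 1 fell with AOA. With library totals 4 rose and 2 fell. None of those called with TMM reached a log2 fold change of 1. With TMM scaling HT-DNA alone raised 8 and lowered none, where 48.2% of all genes were called (3454 higher and 3425 lower). The largest rise with AOA was that of Eif2b3, a subunit of eIF2B (0.62, SE 0.0689). The fall was that of Eif2a, the gene of eIF2A and not of eIF2α (-0.39, SE 0.0891).

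Of 17 targets of ATF6 and XBP1 in the endoplasmic reticulum, 6 rose and 2 fell with AOA (median -0.01), which turned to 1 and 6 with library totals in place of TMM, whereas 2 rose and 11 fell with AOA in HT-DNA-treated cells (median -0.25), and the interaction was called for 10, all negative, against 15.5% of all genes. The chaperone Hspa5 rose most with AOA (0.44, SE 0.0653) and Syvn1, a ubiquitin ligase of the endoplasmic reticulum, fell most (-0.76, SE 0.0934, and -1.38, SE 0.0958, with HT-DNA). Aspartate added to HT-DNA+AOA raised 13 of the 17 and lowered none, Herpud1 most (1.41, SE 0.108). Over all genes 3386 rose and 3411 fell there. Of 8 mitochondrial chaperones and proteases, 7 rose and 1 fell with AOA, the largest rise being that of Htra2 (0.67, SE 0.103) and the fall that of Yme1l1 (-0.34, SE 0.0850), and in HT-DNA-treated cells 4 rose and 1 fell.

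Of 19 tested paralogs of the regulators, 5 rose and 5 fell with AOA, and 7 rose and 4 fell in HT-DNA-treated cells. Trib2, a relative of Trib3, fell from 104.9 ± 2.999 to 32.2 ± 2.88 CPM with AOA (SD, n = 3; log2 fold change -1.70, SE 0.0869, adjusted p = 3.87e-11 by edgeR), and Cebpd, a relative of Cebpb, rose most (0.87, SE 0.180). Trib2 was lower than in Mock with HT-DNA too (-0.999, SE 0.0842), and aspartate left it low (-1.31 relative to Mock, SE 0.0851). Cebpg, the dimer partner of ATF4, which is also on the list of ATF4 or CHOP targets, rose most in HT-DNA-treated cells (1.33, SE 0.103).

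Lists of other stress and immune programs give the setting. Of 14 tested p53 targets, 4 rose and 6 fell with AOA, with Fas the largest rise (1.59, SE 0.350) and Trp53inp1 the largest fall (-1.08, SE 0.201). Of 15 immediate early genes, 3 rose and 7 fell, with Myc highest (1.95, SE 0.0669) and Egr1 lowest (-2.82, SE 0.216). Of 17 NF-κB targets, 13 rose and 1 fell with AOA, the chemokine Cxcl2 most (2.89, SE 0.120), with Tnfaip2 the fall (-0.48, SE 0.0712), and in HT-DNA-treated cells 12 rose and 2 fell. Of 19 interferon-stimulated genes, 4 rose and 3 fell with AOA, 16 rose and none fell with HT-DNA, and 19 rose with AOA in HT-DNA-treated cells. Among called genes with at least 1 CPM in the higher group, Oasl1 rose most with AOA (0.87, SE 0.144) and Ifit2 fell most (-1.32, SE 0.204). Over the whole list, 2 genes rose and 2 fell with AOA by a log2 fold change of at least 1. Mx2, an antiviral GTPase, rose most with AOA in HT-DNA-treated cells (3.89, SE 0.320).

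**Figure D4:**
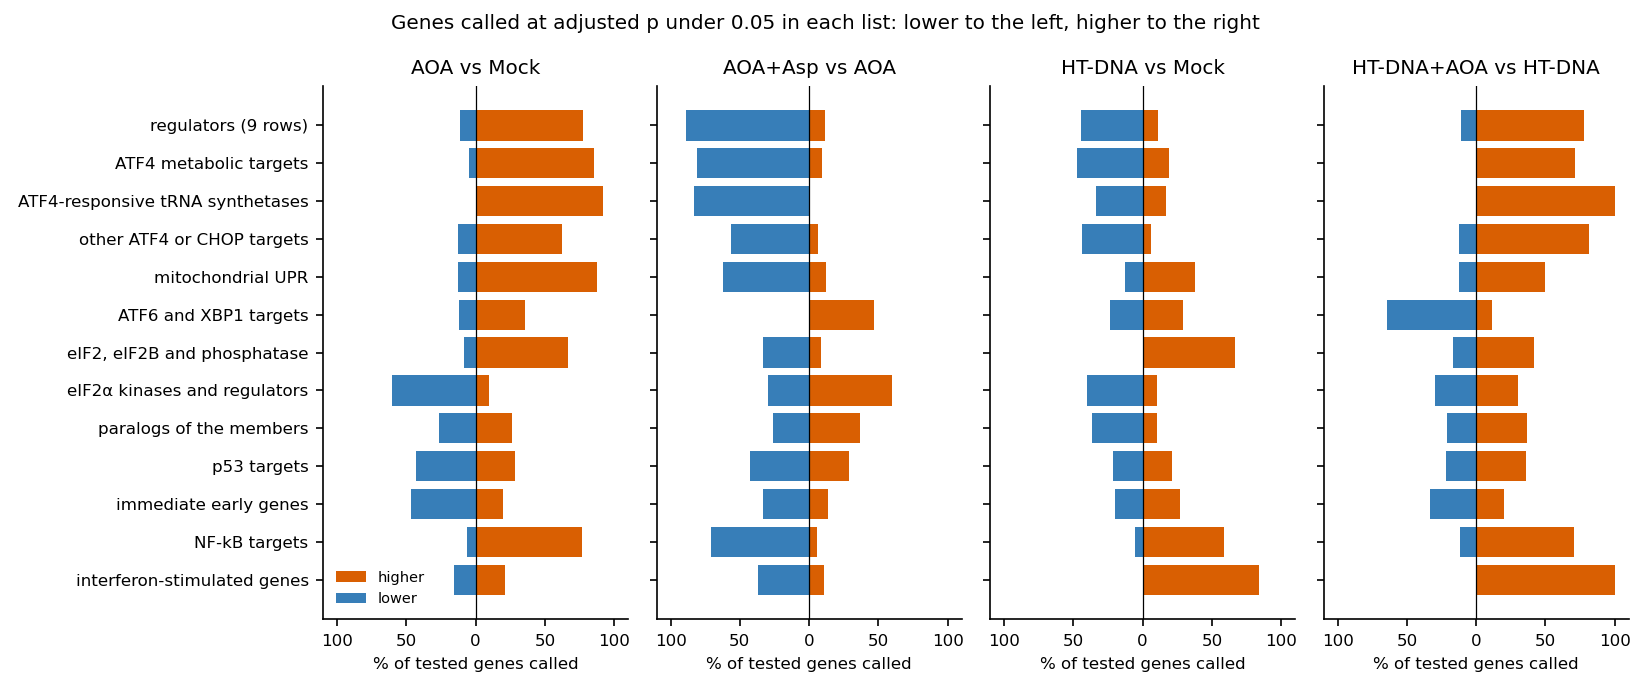
Share of the tested genes of each list (horizontal axis, percent) called higher (right) or lower (left) at an adjusted p under 0.05 in 4 comparisons. The regulators are shown over 9 rows, without Atf3 and the short Ddit3 row. The ATF4 target lists and the regulators lean to the right with AOA and to the left with aspartate, the ATF6 and XBP1 targets lean to the left with AOA in HT-DNA-treated cells (11 of 17 lower), and the interferon-stimulated genes stand out with HT-DNA (16 of 19 higher).

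Genes most like each regulator were sought over the 18 libraries among 12131 other genes with at least 1 CPM on average, by Pearson's correlation of log2 CPM, as a description only, since the libraries share their groups. Ddit3 was most like Gadd45a (r = 0.994), Ets2 (0.984) and Rbm45 (0.980). Ppp1r15a was most like Cyb5r1 (0.994), Gpat3 (0.994) and Ciart (0.993). Chac1 was closest to Aars (0.991), Cyb5r1 (0.990) and Angptl6 (0.989), and Trib3 to Angptl6 (0.984), Adm2 (0.981) and Aars (0.980), so that Aars and Angptl6 appeared for both. For Sesn2 they were Dpf2 (0.973), Trap1 (0.972) and Dus2 (0.971), for Ddit4 Lamp1 (0.961), Mmp11 (0.959) and R3hdm2 (0.949), and for Cebpb Eif4ebp1 (0.968), Ddx28 (0.962) and Nagk (0.959). Atf5 was most like Trabd (0.986), Palm (0.981) and Mrps6 (0.972), and Atf4 like Eif3i (0.946), Txn2 (0.946) and Atp5f1e (0.945). Atf3 was not compared because of its low counts.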

How the data were processed

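RNA from 18 cultures of L929 cells (6 groups, 3 replicates each) was extracted with TRIzol and sequenced. The authors deposited 1 table of estimated counts per gene (expected counts, 11.6% of the values not whole), from which group-mean columns were not used. The aligner, counter, strand setting, genome build and annotation are not given in the sources used here. Values were rounded to whole counts. Genes were filtered with filterByExpr (minimum count 10, minimum total 15), scaled by TMM, and tested in 1 fit of all 6 groups by edgeR's quasi-likelihood test (edgeR 4.0.16, R 4.3.3, robust), with Benjamini-Hochberg adjustment over the 14263 genes tested. The standard error was taken as the log2 fold change divided by the root of the F statistic, and 95% intervals used the t distribution with the test's degrees of freedom. The script was tested on simulated counts. Depth ran from 17901605 to 24057343 counts (median 20385838). Ratios of summed counts are given without an interval, and p-values measure the spread between these cultures.

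The members and lists were chosen with earlier results of these data known. Every member is named in every comparison or given by its range, except Atf3 and the short Ddit3 row, which are given by their counts. Of each other list the text names, for AOA relative to Mock, the largest rise and the largest fall among called genes whose higher group had 1 CPM or more, and by the same rule some of those in other comparisons, and for each member the 3 genes of highest correlation. Alternatives were RLE scaling, library totals, no filter or at least 10 counts in every library, DESeq2 1.42.0, only the libraries compared, a replicate block, a stricter call (also 1 or more on the log2 scale in either direction), and leaving out each library; summing the 2 rows of Ddit3 and leaving Atf3 and the short Ddit3 row out of the counts were added after seeing the data. Replicate numbers were not taken to pair libraries between groups. Exon lengths came from GENCODE vM21 and promoters from RefSeq.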

Additional observations from a re-analysis of the deposited data

Results flagged for a closer look

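In the main fit the effect of AOA on Ddit3 was called as different between cells with and without HT-DNA. It was 1 of the 9 rows called, against 15.5% of all genes. The log2 fold change with AOA was 3.44 in HT-DNA-treated cells and 2.997 without HT-DNA, and the test of the difference itself gave 0.45 on the log2 scale (SE 0.126, adjusted p = 0.0246 by edgeR over all genes). In absolute level the groups with AOA overlapped, at 348 to 385 CPM for AOA and 346 to 417 CPM for HT-DNA+AOA, whereas HT-DNA (30.9 to 38.9 CPM) lay below Mock (42.9 to 48.6 CPM). The call was lost in 6 of the 12 fits that left out 1 library, with values from 0.38 to 0.52 over the 12. It was also lost with only the libraries of these groups in the fit (0.43, adjusted p = 0.071 by edgeR).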

How the results depend on the processing

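The counts here are over the same 9 rows as above, where the shares of all genes stand beside them. With Atf3 and the short Ddit3 row included, the calls were 2 in place of 1 for HT-DNA+AOA relative to AOA. Elsewhere they stayed within 1.5 times. Of the comparisons, 3 kept their number of called rows when 1 library was left out. These were AOA relative to Mock (8 rows, 8 to 8), HT-DNA+AOA relative to HT-DNA (8, 8 to 8) and HT-DNA+AOA+Asp relative to HT-DNA (5, 5 to 5). The ranges elsewhere were 7 to 8 for AOA+Asp relative to AOA, 1 to 2 for AOA+Asp relative to Mock and 3 to 4 for HT-DNA relative to Mock. They were 8 to 9 for HT-DNA+AOA+Asp relative to HT-DNA+AOA, 1 to 2 for HT-DNA+AOA relative to AOA and 1 to 2 for HT-DNA+AOA+Asp relative to AOA+Asp. For the interaction of AOA with HT-DNA the range was 0 to 4, and for that of aspartate with HT-DNA 0 to 2. Requiring a difference of 1 or more on the log2 scale is a stricter rule. Over the 9 rows it left 5 for AOA+Asp relative to AOA and 3 for HT-DNA+AOA+Asp relative to HT-DNA+AOA. It left 1 for AOA+Asp relative to Mock, 1 for HT-DNA+AOA+Asp relative to HT-DNA and 0 for HT-DNA+AOA relative to AOA. It left 0 for HT-DNA relative to Mock, 0 for HT-DNA+AOA+Asp relative to AOA+Asp and 0 for the interaction of AOA with HT-DNA. With Atf3 and the short Ddit3 row included, the rule left 6 rows for AOA+Asp relative to AOA. It then left 5 for HT-DNA+AOA+Asp relative to HT-DNA+AOA, 2 for HT-DNA+AOA+Asp relative to HT-DNA and 1 for HT-DNA+AOA relative to AOA. The other counts under this rule were the same. With only the libraries compared in the fit, HT-DNA+AOA relative to AOA had 0 calls, HT-DNA+AOA+Asp relative to AOA+Asp had 4 and the interaction of AOA with HT-DNA had 0. Over all genes the share called then went from 45.4% to 31.4% for HT-DNA+AOA relative to HT-DNA. It went from 13.4% to 2.96% for HT-DNA+AOA relative to AOA, but from 45.7% to 55.7% for AOA relative to Mock. That interaction had 3 calls with library totals, 2 with no filter on low counts and 2 by DESeq2. With only the libraries compared, single calls were gained for Atf4 in AOA relative to Mock (0.15), Cebpb in AOA+Asp relative to Mock (-0.28), Atf5 in HT-DNA relative to Mock (0.26), Sesn2 in HT-DNA+AOA+Asp relative to HT-DNA (0.17), and Ddit3 (0.27) and Chac1 (0.38) in HT-DNA+AOA+Asp relative to AOA+Asp. Summing the 2 rows of Ddit3 changed no call of another row. The cause was not tested.

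Same-numbered libraries of different groups showed little tendency to deviate together (median r 0.0147 over 45 pairs, 13 of them over 0.1). Over 90 differently numbered pairs the median r was -0.00195, with 16 over 0.1. The numbers were therefore not used to pair the samples, but with 3 replicates per group this cannot exclude pairing. With the replicate number as a block, HT-DNA+AOA+Asp relative to AOA+Asp had 1 call in place of 2, and the number in the other comparisons was the same.

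Results that turned sign were not called in either setting. With library totals these were Chac1 in AOA+Asp relative to Mock (-0.0198), Cebpb in HT-DNA relative to Mock (-0.0578), Atf4 in HT-DNA+AOA+Asp relative to HT-DNA+AOA (0.0145), Atf4 in HT-DNA+AOA relative to AOA (-0.0089) and Ddit4 in the interaction of AOA with HT-DNA (0.0658). Chac1 in HT-DNA+AOA relative to AOA, at -0.00090, turned to 0.0156 with RLE, 0.0064 with at least 10 counts in every library, 0.0161 by DESeq2 and 0.0145 with only the libraries compared. Leaving out 1 library turned the sign within ranges of -0.0734 to 0.1195 for Chac1 and -0.1049 to 0.0294 for Sesn2 in AOA+Asp relative to Mock, -0.0835 to 0.1616 for Cebpb in HT-DNA relative to Mock, -0.1385 to 0.0643 for Atf4 in HT-DNA+AOA relative to HT-DNA, and -0.1824 to 0.0203 for Atf4 in HT-DNA+AOA+Asp relative to HT-DNA+AOA. In HT-DNA+AOA relative to AOA the ranges were -0.1621 to 0.0952 for Chac1, -0.152 to 0.0582 for Sesn2, -0.244 to 0.0212 for Trib3, -0.2937 to 0.0707 for Atf5, -0.0877 to 0.1148 for Atf4 and -0.0733 to 0.257 for Cebpb. They were -0.0636 to 0.036 for Atf5 in HT-DNA+AOA+Asp relative to AOA+Asp, and -0.1399 to 0.0921 for Ddit4 and -0.1275 to 0.2029 for Cebpb in the interaction of AOA with HT-DNA. Over all results of single regulators and all settings, 1307 stayed on their side of the threshold with the same sign, 45 lost the call, 25 gained it and 34 turned sign. Depth limits Atf3 and the short Ddit3 row, for which settings that require counts in every library gave no value.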
